A study of Mus musculus with 6 samples.

Results

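RNA of 9 genes that mark macrophages, or that macrophages use, was followed in stromal cells sorted from mouse melanomas: Adgre1, Csf1r, Cd68, C1qa, C1qb, C1qc, Mrc1, Lyz2 and Trem2. They were taken by name from a table of 53801 genes, and all 9 were among the 15133 genes with enough counts to be tested. The cells were PDPN+PDGFRα+ cells isolated by FACS from MO5 tumors, which grow under the skin from B16 melanoma cells that carry ovalbumin. Before the PDPN and PDGFRα gate, the methods describe gates against dead cells, doublets, CD45+ (hematopoietic) cells and CD31+ (endothelial) cells. The DTR group held 3 libraries from ADAM12-DTR mice, labelled DTR+, whose bacterial artificial chromosome transgene places the diphtheria toxin receptor under the Adam12 promoter, so that the toxin kills ADAM12+ cells. The Ctrl group held 3 libraries labelled DTR-, from non-transgenic littermates. Both groups received diphtheria toxin (DT), and both were young adults on the C57Bl/6 background. The labels state neither the age nor whether a library is 1 mouse or a pool, so p-values measure the spread between these libraries, which may be technical in part.

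Macrophages are phagocytes that develop from circulating monocytes or from embryonic precursors. In tumors they clear dying cells, present antigen, remodel matrix and release factors that act on vessels and lymphocytes. They depend on CSF1 or IL-34, which stromal cells make and which CSF1R receives, and they carry CD45, the product of Ptprc, like all leukocytes. Expression of most genes on the list needs PU.1, the ETS-family factor encoded by Spi1. A gate against CD45 is meant to leave these cells out, so that the counts below are those that remained in the stromal fraction.

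The 6 libraries held between 22339635 and 34271929 reads counted on genes. Levels are given as CPM, a gene's counts relative to its library's total, scaled with TMM factors that ran from 0.961 to 1.03, and the detection floor, set at 3 counts, lay between 0.0872 and 0.132 CPM. This floor covers counting error only. Among markers of the gate, Pdgfra and Pdpn were detected in every library, and 12 fibroblast genes summed to between 5447 and 14578 CPM. A list of 12 pigment cell genes, in which Dct, an enzyme of melanin synthesis, had the most reads, summed to between 16857 and 21029 CPM, a larger share of reads than the fibroblast list in all 6 libraries. Adam12 was at 190 ± 22.1 CPM in Ctrl and 142 ± 27.5 CPM in DTR (mean ± SD, n = 3 each), lower in every DTR library than in every Ctrl library, with an adjusted p of 0.602 by edgeR's quasi-likelihood test. Ptprc, which the gate selects against, had 399, 1186 and 771 counts in Ctrl and 1192, 933 and 834 counts in DTR. Ptprc RNA was thus counted in every library despite the gate.

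All 9 macrophage genes were counted in all 6 libraries, Trem2 only at the floor of 3 counts in Ctrl replicate 2. None of the 9 differed between DTR and Ctrl at an adjusted p under 0.05. Their counts added to between 2320 and 3900 per library, which is 0.0102% to 0.0148% of all counted reads. The summed level was 105, 154 and 108 CPM in Ctrl and 113, 113 and 102.2 CPM in DTR, so that the groups overlapped and Ctrl replicate 2 was the highest of the 6. By edgeR's quasi-likelihood test 0 of 15133 genes (0%) passed the adjusted threshold, so the 0 of 9 here is the count for the whole table as well. With DESeq2, which called 31 of 20360 genes (0.152%), the count among the macrophage genes was also 0. A p that misses the threshold does not show that levels were alike, and in bulk RNA fewer macrophages and less RNA per macrophage cannot be told apart.

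At an unadjusted p under 0.05, 1 of the 9 genes (Mrc1) was lower in DTR and 0 were higher, against 4.11% lower and 3.81% higher among all genes tested (7.92% in all). DESeq2 also gave 1 of 9 (Mrc1), against 4.89% of 26748 genes. Mrc1 was also the single gene of the list whose groups did not overlap, where 8.18% of all genes were lower without overlap and 6.32% higher. These shares lie near those of all genes and single out no property of the list. The log2 fold change was below 0 for 7 of the 9, against 50.4% of all genes, with a median of -0.32 against -0.0029 over all genes. Adgre1 and Lyz2, the exceptions, were higher in DTR with TMM, but scaling to the fibroblast list put them at -0.26 and -0.33, where the median over all genes was -0.42. That scaling applies 1 factor to all genes of a library, but it moved log2 fold changes by amounts that differed between genes. It put 86.1% of all genes below 0, so counts of lower genes under it, here and in the lists that follow, are to be read against that share. The median of the 9 genes rested on Ctrl replicate 2, without which it was -0.0070.

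**Figure D1:**
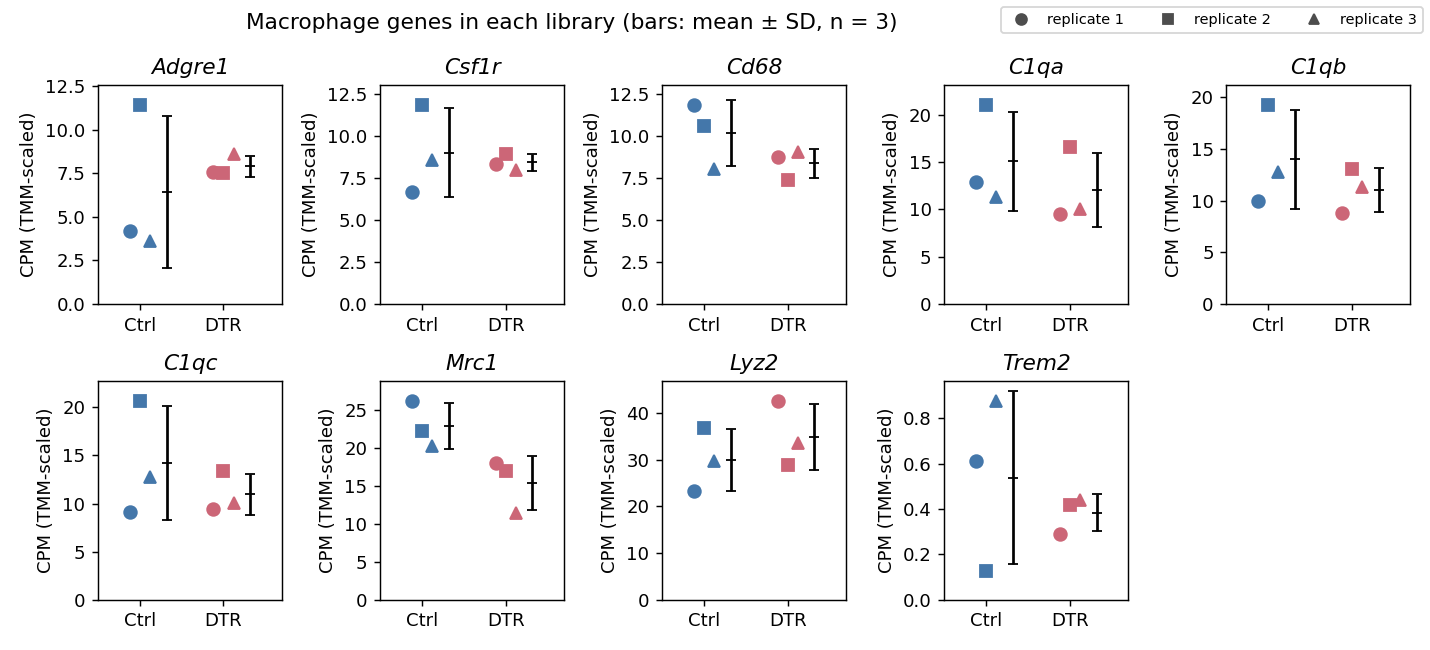
Level of each macrophage gene in CPM scaled with TMM (vertical axes, from 0) in the 3 Ctrl and 3 DTR libraries, with the mean and SD of each group beside the points and a marker shape for each replicate number. Mrc1 is the panel in which every DTR library (11.4 to 18.0 CPM) lies below every Ctrl library (20.2 to 26.2 CPM), and in the other 8 panels the groups overlap.

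The levels of different genes can be compared only per length, which was done here by dividing the TMM-scaled CPM by the kilobases of merged exons, giving RPKM. Lyz2, which encodes lysozyme M, an enzyme that breaks bacterial cell walls, was the most abundant, with a mean of 24.6 RPKM over the 6 libraries and rank 1428 among 21923 protein-coding genes. C1qa (13.0 RPKM) and C1qb (11.5 RPKM) followed, and C1qa was the higher of this pair in 4 of 6 libraries and C1qb was above Cd68, the next gene, in 5. Cd68 was at 7.39 RPKM and C1qc at 6.52 RPKM, each the higher in 3 of 6 libraries, so that their order was not set beyond the spread. Lyz2 over C1qa, C1qc over Mrc1 and Csf1r over Trem2 were the steps that held in 6 of 6 libraries. Mrc1 (3.01 RPKM) exceeded Adgre1 (2.21 RPKM) in 4 of 6 libraries, and Adgre1 exceeded Csf1r (1.51 RPKM) in 5. Trem2 was the lowest at 0.0932 RPKM, rank 13446. The merged exon length of Trem2 is 4946 bases in the annotation and counts exons of all its transcripts, which lowers its RPKM where the longest of them are not made. Where a gene of a list is said to have the most reads, the measure is its mean CPM, which is not corrected for length and does not rank levels.

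Among the surface receptors, Mrc1 encodes CD206, the mannose receptor, which takes up glycoproteins and marks many tissue and tumor macrophages. It had 26.2, 22.3 and 20.2 CPM in Ctrl and 18.0, 17.0 and 11.4 CPM in DTR. All 3 DTR libraries were lower than all 3 Ctrl libraries, and DTR replicate 3 was the lowest. The mean was 22.9 ± 3.07 CPM in Ctrl and 15.4 ± 3.55 CPM in DTR (SD, n = 3 each), which is 67.4% of Ctrl. The log2 fold change was -0.57 (SE 0.195), with an unadjusted p of 0.0200 and an adjusted p of 0.602 by edgeR's quasi-likelihood test, while the two-sided exact permutation test gave p = 0.1, the smallest that 3 libraries against 3 allow. Without Ctrl replicate 1, the highest library, the edgeR fit gave a log2 fold change of -0.46 and an unadjusted p of 0.069. Mrc1 (ENSMUSG00000026712) lies on chromosome 2 (GRCm38, chr2:14229392-14332057, plus strand).

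Adgre1 encodes F4/80, the adhesion receptor often used to stain mouse macrophages (ENSMUSG00000004730, GRCm38, chr17:57358691-57483527, plus strand). It was at 4.16, 11.4 and 3.62 CPM in Ctrl and 7.58, 7.53 and 8.59 CPM in DTR. The DTR libraries lay close together between the Ctrl libraries, of which replicate 2 was the highest of all 6. The log2 fold change was 0.31 (SE 0.420, adjusted p = 0.856 by edgeR's quasi-likelihood test). Without Ctrl replicate 2 it was 1.02, with an unadjusted edgeR p of 0.0029 and an adjusted p of 0.852, whereas it was 0.07 without Ctrl replicate 1 and 0.02 without Ctrl replicate 3.

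Csf1r encodes the receptor for CSF1 and IL-34, on which macrophages depend for survival. It was at 6.65, 11.9 and 8.57 CPM in Ctrl and 8.37, 8.98 and 7.97 CPM in DTR, with the DTR libraries again inside the Ctrl range. The log2 fold change was -0.10 (SE 0.232, adjusted p = 0.927 by edgeR), and it was 0.15 without Ctrl replicate 2 and -0.28 without Ctrl replicate 1. Pdgfrb, which encodes a stromal growth factor receptor, ends 15536 bases upstream of Csf1r on the same strand and had more counts in every library. Csf1r had between 9.70 counts (Ctrl replicate 1) and 64.7 counts (Ctrl replicate 2) per 100 Pdgfrb counts, so the neighbours did not keep a fixed ratio.

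Trem2 encodes a receptor for lipids and dying cells that macrophages carry in fat-rich tissue and in tumors (GRCm38, chr17:48346401-48354147, plus strand). It had 15, 3 and 25 counts in Ctrl and 10, 13 and 10 counts in DTR, at the floor in Ctrl replicate 2. Its log2 fold change of -0.50 had an SE of 0.713 (adjusted p = 0.861 by edgeR), and it was 0.05 without Ctrl replicate 3 and -0.96 without Ctrl replicate 2.

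Cd68 encodes a glycoprotein of late endosomes and lysosomes (GRCm38, chr11:69664213-69666153, minus strand). It was the steadiest of the 9 genes, at 11.9, 10.6 and 8.04 CPM in Ctrl and 8.75, 7.40 and 9.03 CPM in DTR, a range of 1.60-fold over the 6 libraries. Ctrl replicates 1 and 2 were above all 3 DTR libraries, and Ctrl replicate 3 lay among them. The log2 fold change was -0.28 (SE 0.199, adjusted p = 0.720 by edgeR), and it was -0.15 without Ctrl replicate 1 and -0.42 without Ctrl replicate 3. Eif4a1, an abundant translation factor gene, lies 782 bases from Cd68 on the same strand, and reads that run between such neighbours cannot be assigned from counts per gene.

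Lyz2 had 572, 877 and 844 counts in Ctrl and 1467, 893 and 759 counts in DTR. At 42.6 CPM, DTR replicate 1 was the highest library, while the other 2 DTR libraries (28.7 and 33.4 CPM) fell within the Ctrl range of 23.3 to 36.7 CPM. The log2 fold change was 0.23 (SE 0.200, adjusted p = 0.771 by edgeR), and it was 0.07 without DTR replicate 1, 0.08 without Ctrl replicate 1, 0.40 without Ctrl replicate 2 and 0.35 without DTR replicate 2. Its neighbour Lyz1, a second lysozyme gene, had between 4 and 14 counts per library, or 0.684 to 1.58 for every 100 Lyz2 counts. Of the 50-base words in Lyz2 exons, 15.4% also occur in Lyz1, so reads from these shared stretches cannot be assigned with certainty. Lyz2 spans chr10:117277331-117282321 (GRCm38, minus strand).

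**Figure D2:**
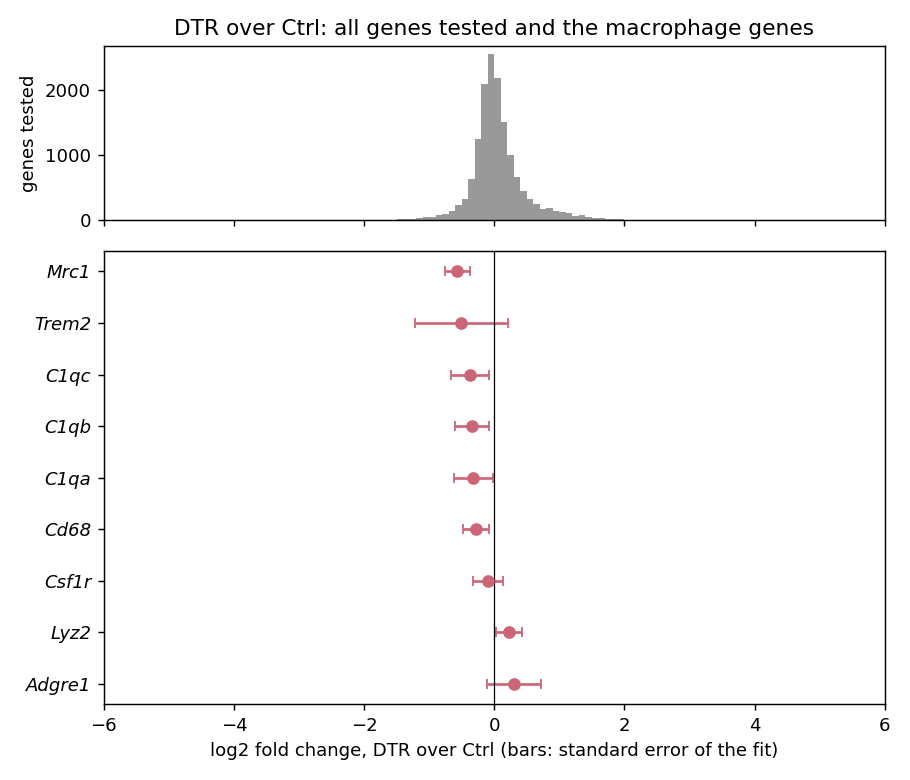
Log2 fold change of DTR over Ctrl (horizontal axis) for all 15133 genes tested, as a histogram above, and for each macrophage gene below, where points are edgeR estimates with TMM scaling and bars their standard errors. The estimates run from -0.57 (Mrc1) to 0.31 (Adgre1), against a median of -0.0029 over all genes, and Adgre1 and Lyz2, the genes right of 0, turn negative when scaled to the fibroblast list.

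C1qa, C1qb and C1qc encode the 3 chains of C1q, the recognition part of complement component C1, which binds immune complexes and dying cells. In many tissues macrophages are its main source. The genes lie next to each other on chromosome 4 (GRCm38, minus strand) within 18675 bases, with C1qb at chr4:136880129-136886187, C1qc at chr4:136889804-136893065 and C1qa at chr4:136895917-136898803. Upstream sequences are shown for C1qb and C1qc, the pair whose levels moved most closely together, and for Mrc1, the gene without overlap between the groups. Each run is the 250 bases before the RefSeq start (GRCm38.p6), read 5′ to 3′ on the strand of the gene, from chr4:136886201-136886450 for C1qb, chr4:136892915-136893164 for C1qc and chr2:14229164-14229413 for Mrc1. By the gene coordinates given here, part of the C1qc window and part of the Mrc1 window lie inside the gene rather than upstream of it. Capitals mark GAGGAA or its reverse complement TTCCTC, the core letters to which PU.1 and other ETS factors are known to bind.
C1qb: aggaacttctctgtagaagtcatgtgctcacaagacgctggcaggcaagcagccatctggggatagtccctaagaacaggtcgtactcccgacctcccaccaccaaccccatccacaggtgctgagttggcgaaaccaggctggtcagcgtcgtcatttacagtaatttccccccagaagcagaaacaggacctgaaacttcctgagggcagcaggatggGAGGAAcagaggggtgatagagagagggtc
C1qc: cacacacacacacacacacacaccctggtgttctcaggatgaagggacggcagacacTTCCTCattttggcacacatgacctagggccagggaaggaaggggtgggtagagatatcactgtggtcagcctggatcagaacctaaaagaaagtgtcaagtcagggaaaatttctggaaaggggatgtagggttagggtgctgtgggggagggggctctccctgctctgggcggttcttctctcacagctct
Mrc1: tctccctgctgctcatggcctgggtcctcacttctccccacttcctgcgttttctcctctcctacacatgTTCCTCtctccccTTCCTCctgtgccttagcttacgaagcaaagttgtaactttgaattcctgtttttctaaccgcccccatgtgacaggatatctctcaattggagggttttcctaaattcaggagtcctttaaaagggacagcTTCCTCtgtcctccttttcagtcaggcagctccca

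The first capital lies 30 bases before the start in C1qb and 193 bases before it in C1qc, and at 180, 167 and 35 bases in Mrc1. RefSeq entries were at hand for 6 of the 9 genes, and 5 of these windows (Mrc1, C1qb, C1qc, Cd68 and Trem2, but not Lyz2) held the 6 letters on either strand. So did 7639 of 32851 windows of the same length, or 23.3%. The longer GAGGAAGT (reverse complement ACTTCCTC), which contains the first motif, occurred in 1 of the 6 windows (C1qc) and in 2.44% of all windows. Such matches describe the letters alone. Spi1 itself, the gene of PU.1, was at 4.61, 4.48 and 7.37 CPM in Ctrl and 3.69, 5.02 and 3.66 CPM in DTR, with overlapping groups (log2 fold change -0.41, SE 0.289, adjusted p = 0.717 by edgeR).

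The C1q genes were followed library by library. C1qa was at 12.9, 21.0 and 11.3 CPM in Ctrl and 9.50, 16.6 and 10.05 CPM in DTR. C1qb was at 9.99, 19.3 and 12.7 CPM in Ctrl and 8.77, 13.1 and 11.3 CPM in DTR. C1qc was at 9.14, 20.7 and 12.7 CPM in Ctrl and 9.47, 13.4 and 10.05 CPM in DTR. Replicate 2 was the highest library of its group for all 3 chains, and the groups overlapped for each. Log2 fold changes were -0.32 (SE 0.298), -0.34 (SE 0.264) and -0.37 (SE 0.298) for C1qa, C1qb and C1qc, with adjusted p-values of 0.784, 0.743 and 0.752 by edgeR. Without Ctrl replicate 2 that of C1qc was 0.0019, and those of C1qa and C1qb were -0.0070 and -0.045. In the other direction, C1qa was at -0.63 without DTR replicate 2, and without Ctrl replicate 1 C1qb was at -0.54 and C1qc at -0.61, the latter with an unadjusted edgeR p of 0.049.

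Of all C1q counts in a library, C1qa made up 30.7% to 40.3%, C1qb 30.4% to 36.0% and C1qc 28.5% to 34.7%. Over the 6 libraries, log2(CPM + 0.5) of C1qb and C1qc correlated with Pearson's r = 0.969 (exact permutation p = 0.0042, adjusted 0.0125 over the 3 pairs) and Spearman's rho = 0.943 (exact permutation p = 0.0167, adjusted 0.05), and r was 0.980 without the 2 libraries farthest from the median. The pairs with C1qa rested on Ctrl replicate 2 and DTR replicate 2. For C1qa with C1qb, r was 0.848 (exact permutation p = 0.0264, adjusted 0.0264) and rho 0.829 (exact permutation p = 0.0583, adjusted 0.0875), and r was 0.257 without those libraries. For C1qa with C1qc, r was 0.847 (exact permutation p = 0.0264, adjusted 0.0264) and rho 0.657 (exact permutation p = 0.175, adjusted 0.175), and r was 0.0025 without them. With 3 libraries in a group, no correlation was computed within Ctrl or within DTR.

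The other macrophage genes followed C1q to different degrees. Pearson's r with the mean of the C1q genes, given as a description over the 6 libraries that share one scaling, was 0.849 for Csf1r, 0.461 for Adgre1, 0.282 for Mrc1, 0.083 for Cd68 and 0.042 for Lyz2. Per 100 C1q counts, Csf1r kept between 19.5 and 30.2 counts in all libraries. Mrc1 had 81.8, 36.5 and 54.9 in Ctrl and 64.7, 39.4 and 36.2 in DTR, so the separation of the groups seen in its CPM was not present relative to C1q. Lyz2 had 72.8, 60.1 and 80.6 in Ctrl and 154, 66.8 and 107 in DTR, highest in DTR replicate 1. Cd68 ranged from 17.2 in DTR replicate 2 to 37.0 in Ctrl replicate 1. Ctrl replicate 2 was the highest Ctrl library for 6 of the 9 genes, and the fold range was wider in Ctrl than in DTR for 8 of 9 (Mrc1 was the exception). The shares of all genes with these features were not computed, so no trait of the list is read from these counts.

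**Figure D3:**
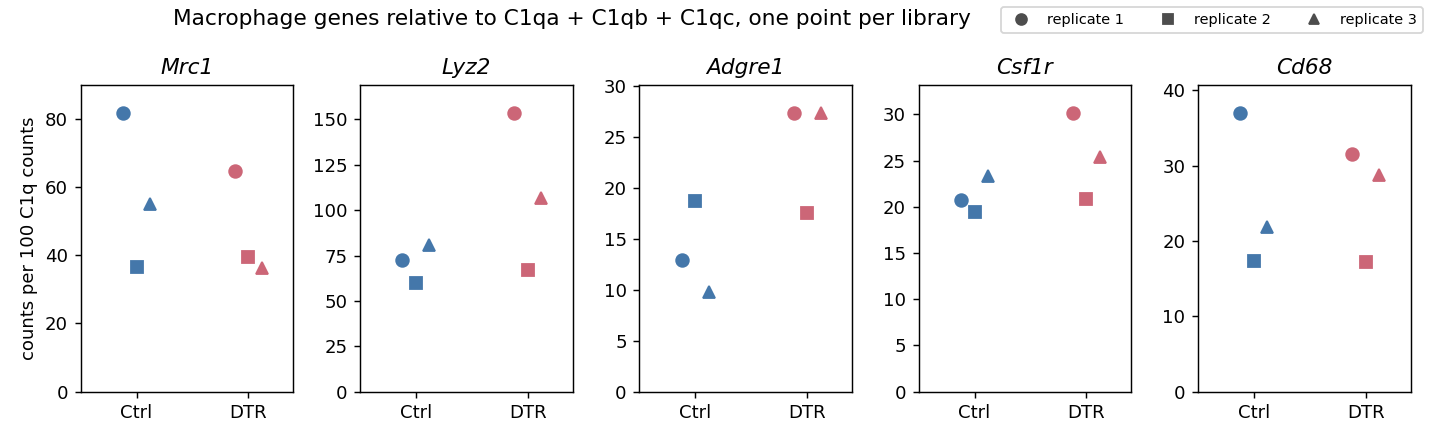
Counts of Mrc1, Lyz2, Adgre1, Csf1r and Cd68 per 100 counts of C1qa, C1qb and C1qc together (vertical axes, from 0) in each Ctrl and DTR library, with a marker shape for each replicate number. Csf1r stays between 19.5 and 30.2 in all libraries, while Cd68 spans 17.2 to 37.0 and Lyz2 60.1 to 154.

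The 12 genes outside the list whose log2(CPM + 0.5) was most like the C1q mean, among 13591 tested genes with a mean of at least 20 counts, were Ppp1r12a (r = 0.994), Baz2a, Tcp11l1, Phf3, Rbfox1, Spen, Myo5a, AI837181, Gpatch8, Socs7, Tiam1 and Nectin4 (r = 0.975). Of these, 0 belong to the macrophage or leukocyte lists, and Myo5a encodes the motor that carries pigment granules. The nearest genes of those lists were Lcp1 at rank 107 (r = 0.909), Vav1 at rank 128 (r = 0.904) and Fcer1g at rank 228 (r = 0.877). At the far end, Clec7a had r = -0.752. With library size alone in place of TMM, Ppp1r12a moved from rank 1 to rank 85, so the order near the top depends on the scaling.

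Other macrophage genes were split more evenly between lower and higher than the 9 above. Of 30 further markers, 27 were tested. In DTR 15 had a lower and 12 a higher fitted level, with 0 at an adjusted p under 0.05 and a median log2 fold change of -0.13. When scaled to the fibroblast list 26 of the 27 were lower (86.1% of all genes), with a median at -0.06 relative to that of all genes, against -0.13 with TMM. The median was 0.03 without Ctrl replicate 2, 0.01 without DTR replicate 2 and -0.01 without DTR replicate 3. Their summed level was 287, 375 and 336 CPM in Ctrl and 320, 335 and 353 CPM in DTR. The lowest was Folr2, a folate receptor of resident macrophages, at -1.39 (SE 0.970, adjusted p = 0.714 by edgeR), and the highest was Cx3cr1, the fractalkine receptor, at 0.61 (SE 0.470, adjusted p = 0.743 by edgeR). Stab1, a scavenger receptor, was the 1 gene of 27 with an unadjusted p under 0.05 (4.11% of all genes were lower), at 9.42, 9.70 and 8.57 CPM in Ctrl and 7.38, 5.82 and 5.02 CPM in DTR (log2 fold change -0.60, SE 0.204, adjusted p = 0.602 by edgeR), and with C3ar1 it was 1 of 2 without overlap, both lower, near the 8.18% of all genes. Stab1 and C3ar1 were named after their values were seen, as were other genes below that stand for a count of 5 or fewer.

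Tyrobp and Fcer1g encode adaptors through which TREM2 and Fc receptors signal. Tyrobp was at 2.61, 3.22 and 4.04 CPM in Ctrl and 5.84, 2.32 and 3.70 CPM in DTR, and Fcer1g at 5.83, 10.7 and 8.25 CPM in Ctrl and 6.68, 7.66 and 7.27 CPM in DTR. For both, the groups overlapped, and adjusted p-values were 0.863 and 0.842 by edgeR. Mertk, a receptor for dying cells that melanoma cells can also make, had the most reads of the 30 (103, 108 and 108 CPM in Ctrl, 102.4, 117.4 and 100.4 CPM in DTR), while per length Ctss, a lysosomal protease, was higher, with a mean of 39.6 RPKM against 24.6 RPKM for Mertk. Itgam, the gene of CD11b, is named in 2 rows of the table. The row ENSMUSG00000030786 was 0 in all 6 libraries, and the row ENSMUSG00000108596, an overlapping gene on the same strand that GENCODE M21 calls Gm49368, had 5, 0 and 9 counts in Ctrl and 2, 0 and 0 counts in DTR, so neither was tested and CD11b RNA cannot be read from this table.

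Genes of activation states were counted in fixed lists. Of 12 genes of alternative activation, 7 were tested, of which 5 were lower and 2 higher, also when scaled to the fibroblast list (86.1% of all genes lower). Chil3, a chitinase-like protein, had 4, 7 and 7 counts in Ctrl and 20, 50 and 48 counts in DTR, higher in every DTR library (log2 fold change 2.58, SE 0.635, unadjusted p = 0.0036 and adjusted p = 0.602 by edgeR). Among all genes 6.32% were higher without overlap. Clec10a, a lectin of macrophages and dendritic cells, was at 1.88, 1.30 and 1.51 CPM in Ctrl and 0.814, 0.225 and 0.881 CPM in DTR, without overlap in the other direction (log2 fold change -1.29, SE 0.565, adjusted p = 0.630 by edgeR). Tgfb1, the gene of TGF-β1, was also lower without overlap (-0.30, SE 0.112, adjusted p = 0.602 by edgeR), which makes 2 of 7 against 8.18% of all genes, and Vegfa, a hypoxia-induced angiogenic factor, had the most reads (79.3 to 194 CPM). Cd163 and Retnla, further genes of this state, had too few counts to be tested.

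Among 13 inflammatory and antigen presentation genes, 12 were tested, of which 10 were higher and 2 lower, with 0 at an unadjusted p under 0.05. The direction rested on DTR replicate 3, without which 9 of the 12 were lower (50% of all genes) and the median was -0.18 in place of 0.16. When scaled to the fibroblast list 9 of the 12 were also lower, but their median stayed 0.10 above that of all genes. The ends were Tnf at -0.78 (SE 0.401, adjusted p = 0.651 by edgeR), the 1 gene of 12 without overlap (8.18% of all genes were lower), and Il6, a cytokine that stromal cells also make, at 0.89 (SE 0.659, adjusted p = 0.730 by edgeR). Cd74, the invariant chain of MHC class II, had the most reads, at 88.8, 396 and 340 CPM in Ctrl and 163, 272 and 411 CPM in DTR, with overlapping groups and its lowest value in Ctrl replicate 1.

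Of 14 lysosome and lipid handling genes that foamy macrophages use, 11 were lower and 3 higher, with a median of -0.07. Spp1, the gene of osteopontin, was the lowest, at 199.9, 112 and 237 CPM in Ctrl and 79.3, 123 and 101 CPM in DTR (log2 fold change -0.85, SE 0.271, unadjusted p = 0.0139 and adjusted p = 0.602 by edgeR). Apoe (-0.35, SE 0.128) and Ctsz (-0.22, SE 0.0925) were the other 2 at an unadjusted p under 0.05, which makes 3 of 14 lower, against 4.11% of all genes, and Ctsz was the 1 gene without overlap, against 8.18% lower in that way among all genes. The 3 became 0 without Ctrl replicate 3, 1 without Ctrl replicate 2, 0 when scaled to the fibroblast list and 2 with DESeq2. The highest was Lpl, lipoprotein lipase, at 0.36 (SE 0.304), and the most reads were those of Gpnmb, at 1775 to 2143 CPM, a glycoprotein of pigment granules as well as of macrophages. Together the list summed to 4491 to 5164 CPM, far above the 102.2 to 154 CPM of the macrophage genes, and the share of it that came from macrophages was not tested. When scaled to the fibroblast list all 14 genes were lower, with a median at -0.09 relative to that of all genes, against -0.07 with TMM.

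Signals that act on macrophages were measured in the same cells. Of 11 listed, 10 were tested, of which 5 were higher and 5 lower (2 and 8 when scaled to the fibroblast list, with a median 0.06 above that of all genes). The groups overlapped for all 10, and 0 reached an unadjusted p under 0.05. Without Ctrl replicate 1, 8 of 10 were higher, 2 of them at an unadjusted edgeR p under 0.05 (5.16% of all genes in that fit), and the median was 0.37 in place of 0.15, while it was 0.0076 without DTR replicate 3. Csf1 was at 83.8, 55.3 and 46.7 CPM in Ctrl and 79.1, 55.0 and 108 CPM in DTR (log2 fold change 0.38, SE 0.279, adjusted p = 0.730 by edgeR, and -0.05 when scaled to the fibroblast list, 0.37 above the median of all genes). Il34, the other ligand of CSF1R, was the highest at 1.02 (SE 0.598, adjusted p = 0.668 by edgeR), with 109 counts in DTR replicate 3 and 14 to 54 in the other libraries. Ccl2, a chemokine for monocytes, was the lowest at -0.38 (SE 0.451, adjusted p = 0.836 by edgeR, and 0.32 without Ctrl replicate 1), and the chemokine genes Ccl7 (-0.15), Ccl8 (-0.01), Cx3cl1 (-0.33) and Cxcl12 (0.32) were also within the spread of the libraries.

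Gas6 and Pros1 encode bridging molecules between dying cells and the receptors Axl, Mertk and Tyro3, and Mfge8 encodes a bridge to integrins. Gas6 was at 15.2, 7.24 and 6.64 CPM in Ctrl and 12.7, 7.95 and 33.1 CPM in DTR, so that its log2 fold change of 0.88 (SE 0.536, adjusted p = 0.678 by edgeR) came with DTR replicate 3 far above the other 5 libraries. Pros1 had the most reads of the signals at 61.2 to 105 CPM (0.30, SE 0.185), and Mfge8 was at -0.09 (SE 0.102). Of 12 receptors for dying cells, 11 were tested, 5 lower and 6 higher (10 and 1 when scaled to the fibroblast list, with a median 0.03 above that of all genes), with a median of 0.0050 that was below 0 (-0.12 to -0.02) without any 1 of the libraries. Stab2, a scavenger receptor, was the lowest, with 18, 17 and 29 counts in Ctrl and 6, 6 and 2 counts in DTR (log2 fold change -2.37, SE 0.564, unadjusted p = 0.0030 and adjusted p = 0.602 by edgeR), and it and Stab1 were the 2 of 11 lower without overlap (8.18% of all genes) and the 2 lower at an unadjusted p under 0.05 (4.11%). Itgb5 was the highest (0.58, SE 0.425), and Lrp1, which fibroblasts also make, had the most reads (401 to 1049 CPM).

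The proteins that work with C1q were counted apart. C1r and C1s are the proteases that C1q carries, and C1 inhibitor (Serping1) stops them. All 5 of the 6 genes that could be tested were higher in DTR, with a median log2 fold change of 0.88, but 0 passed at an unadjusted p under 0.05 and 0 were without overlap. C1s1 was at 92.6, 53.3 and 59.0 CPM in Ctrl and 95.1, 60.4 and 269 CPM in DTR (log2 fold change 1.05, SE 0.504, adjusted p = 0.642 by edgeR). C1ra (0.69), Serping1 (0.88), C3 (0.92) and C4b (0.49) also had their highest value in DTR replicate 3. Without that library the median was 0.09 and C4b was lower in DTR. Without DTR replicate 2 the median was 1.23 and all 5 were higher at an unadjusted edgeR p under 0.05, against 4.50% of all genes in that fit. When every gene with at least 1 count was kept, 4 of 5 were, against 4.19%. When scaled to the fibroblast list 4 of the 5 were still higher, with a median of 0.29, which is 0.71 above that of all genes. The exception was C4b at -0.21, which is 0.21 above the median of all genes. The fibroblast list also reached its highest sum in DTR replicate 3 (14578 CPM). In levels per library, the genes that encode C1q thus ran apart from those of its partners, since C1q was highest in Ctrl replicate 2 and its partners in DTR replicate 3.

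Markers of other cells were followed beside these results. The 15 pan-leukocyte genes summed to 188, 352 and 244 CPM in Ctrl and 226, 243 and 247 CPM in DTR, highest in Ctrl replicate 2 like C1q. They split into 8 lower and 7 higher, but without Ctrl replicate 2, 13 of 15 were higher and the median was 0.23 in place of -0.03, and without Ctrl replicate 1, 12 of 15 were lower. When scaled to the fibroblast list all 15 were lower, with a median at -0.15 relative to that of all genes. Ptprc was at 31.0 ± 17.0 CPM in Ctrl and 33.8 ± 3.44 CPM in DTR (SD, n = 3 each, log2 fold change 0.13, SE 0.344, adjusted p = 0.936 by edgeR), and its log2 fold change was -0.51 when scaled to the fibroblast list, or -0.09 relative to the median of all genes. Over the 14 alternatives the log2 fold change of Ptprc ran from -0.51 to 0.64, and it was also below 0 without Ctrl replicate 1. Itgb2, the integrin β2 subunit, was the lowest (-0.45, SE 0.143, unadjusted p = 0.0130 and adjusted p = 0.602 by edgeR) and, with Lcp1, which had the most reads of the list, 1 of 2 of the 15 that were lower without overlap (8.18% of all genes), while Cd53 was the highest (0.37, SE 0.283).

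The 14 T and NK cell genes summed to 11.8, 74.9 and 32.3 CPM in Ctrl and 21.0, 23.7 and 30.6 CPM in DTR. All 13 tested were lower in DTR, from Ncr1 (-1.33, SE 0.750) to Cd4 (-0.14, SE 0.880), with 1 at an unadjusted p under 0.05 and without overlap (Cd3d), against 4.11% and 8.18% of all genes. This rested on Ctrl replicate 2, without which 8 of 13 were higher and the median was 0.10 in place of -0.59, while without Ctrl replicate 1 it was -1.04 with 6 at an unadjusted edgeR p under 0.05, against 3.19% of all genes in that fit. When scaled to the fibroblast list all 13 were lower (86.1% of all genes), with a median at -0.94 relative to that of all genes. In that fit 3 of the 13 had an unadjusted edgeR p under 0.05, against 147 of 15133 genes. Gzmb, granzyme B of killer cells, had the most reads (1.63 to 13.5 CPM). Of 9 tested monocyte and dendritic cell genes, 8 were higher, while 50.4% of all genes were lower. Ly6c2, which marks inflammatory monocytes, was the highest, with 11, 44 and 28 counts in Ctrl and 76, 104 and 94 counts in DTR (log2 fold change 1.56, SE 0.533, unadjusted p = 0.0191 and adjusted p = 0.602 by edgeR), while Zbtb46 was the lowest (-0.04, SE 0.183) and Plac8 had the most reads (10.3 to 29.7 CPM). Ly6c2 was the 1 of 9 at an unadjusted p under 0.05 and the 1 without overlap, against 3.81% and 6.32% higher among all genes. Over the 14 alternatives its log2 fold change ran from 0.95 to 2.15. Scaled to the fibroblast list 4 of these 9 were higher, with a median 0.18 above that of all genes, against 0.56 above it with TMM. The median log2 fold change of these genes, 0.56, was 0.22 without Ctrl replicate 1, 0.28 without DTR replicate 3 and 0.82 without either replicate 2.

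Neutrophil RNA was near the floor, with Ly6g and Camp at 0 in all libraries, a summed level of 1.67 to 7.87 CPM over 12 genes, and Csf3r the 1 gene tested (-0.77, SE 0.642). Csf3r was at -0.13 without Ctrl replicate 1 and -1.12 without Ctrl replicate 3. The 7 B cell genes summed to 19.1 to 48.2 CPM in Ctrl and 40.9 to 76.2 CPM in DTR. Most of this was Jchain, a gene of antibody-secreting cells and the highest of the 4 tested (0.99, SE 0.453, adjusted p = 0.630 by edgeR), while Fcrla was the lowest (-0.53, SE 0.791). The 6 mast cell genes summed to 2.49 to 14.4 CPM, and their 4 tested genes ran from Tpsb2 (0.22, SE 0.942) to Cpa3 (0.46, SE 0.773), with the most reads in Cma1. The median of these 4, 0.31, was -0.08 without Ctrl replicate 1, -0.05 without Ctrl replicate 2 and 1.47 without Ctrl replicate 3. The part of each of these cell types in the macrophage counts was not tested.

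Of the cells that are not leukocytes, endothelial RNA was low and uneven. Pecam1, the gene of CD31, was at 3.81 ± 1.21 CPM in Ctrl and 5.81 ± 2.04 CPM in DTR (SD, n = 3 each, log2 fold change 0.61, adjusted p = 0.665 by edgeR). Of 10 endothelial genes 5 were tested, from Cdh5 (-1.53, SE 0.957) to Tek (1.84, SE 0.778), the latter also with the most reads, at 62.8 CPM in DTR replicate 3. Tek and Vwf, 2 of the 5, were higher at an unadjusted p under 0.05, against 3.81% of all genes, and Vwf (0.51, SE 0.140, adjusted p = 0.602 by edgeR) was higher without overlap, against 6.32%. With replicates left out the 2 ranged from 1 to 3, and Tek was at 0.42 without DTR replicate 3. The 2 became 1 with DESeq2 or robust moderation and 0 when scaled to the fibroblast list. Under that scaling 1 of the 5 was lower at an unadjusted edgeR p under 0.05, against 147 of 15133 genes in either direction. Of 12 fibroblast genes 11 were higher in DTR, from Pdgfrb (-0.19, SE 0.434) to Dcn (1.02, SE 0.542), with the most reads in Col3a1, whereas by construction that direction is lost when scaled to the list itself. The median of the fibroblast list, 0.38, was 0.08 without DTR replicate 3 and 0.90 without Ctrl replicate 1. Of 12 pigment cell genes 10 were lower (all 12 when scaled to the fibroblast list, with a median at -0.11 relative to that of all genes), from Sox10 (-0.28, SE 0.0979) to Mlana (0.05, SE 0.123). Without Ctrl replicate 2, 7 of the 12 were lower (49.1% of all genes) and their median was -0.02 in place of -0.08. Without Ctrl replicate 1, all 12 were lower (49.8% of all genes), with a median of -0.17. Pdgfra was at 0.29 (adjusted p = 0.862) and Pdpn at 0.37 (adjusted p = 0.730) by edgeR. The 7 mural cell genes summed to 18.5 to 35.1 CPM in Ctrl and 14.8 to 15.3 CPM in DTR. Their 5 tested genes, 4 of them lower, ran from Cspg4 (-1.02, SE 0.334) to Myh11 (0.39, SE 0.820), with the most reads also in Cspg4. At an unadjusted p under 0.05 1 of the 5 was lower (4.11% of all genes), and 1 was lower without overlap (8.18%). Their median, -0.73, was -0.18 without Ctrl replicate 1 and -1.02 without DTR replicate 2. Of 6 keratinocyte genes Krt10 alone was tested (0.46, SE 0.797). None of the genes in these lists passed the adjusted threshold in edgeR or in DESeq2.

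**Figure D4:**
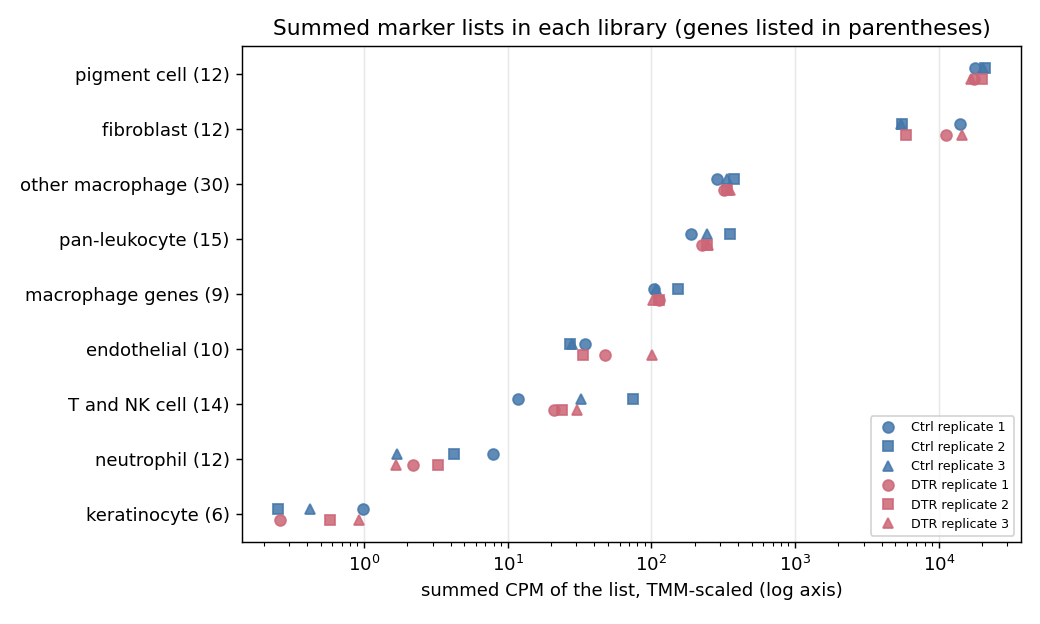
Summed CPM of 9 lists of marker genes in each library (horizontal log axis), with Ctrl in blue, DTR in red and a marker shape for each replicate number. The macrophage genes (102.2 to 154 CPM) have a far smaller share of the reads than the fibroblast list (5447 to 14578 CPM) and the pigment cell list (16857 to 21029 CPM) and a larger one than the T and NK cell list (11.8 to 74.9 CPM), and the groups overlap for all 4.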

How the data were processed

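RNA of PDPN+PDGFRα+ cells was sequenced in 6 libraries, 3 Ctrl and 3 DTR, grouped by the sample titles. The authors prepared stranded total RNA libraries, trimmed reads with cutadapt 3.4, aligned them to GRCm38 with STAR 2.7.3a and counted them per gene by strand with featureCounts 2.0.1 (versions from the submitters' processing notes), and the deposited raw counts, which are not normalized, are the values used here. The handling of reads with several alignments is not given in the sources used here. Deposited normalized values, fold changes and p-values of the authors' comparison were not used. Totals ran from 22339635 to 34271929 counts per library.

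The filter filterByExpr of edgeR (minimum count 10, minimum total 15) left 15133 of 53801 genes. The main test of DTR against Ctrl was edgeR's quasi-likelihood test on TMM-scaled counts (two-sided, no covariates, Benjamini-Hochberg adjustment over all genes tested, threshold 0.05), with a common dispersion of 0.0662, 3.94 prior degrees of freedom and 4 residual ones. Each SE is the size of the log2 fold change divided by the root of its F. For single genes an exact permutation test (two-sided) on log2(CPM + 0.5) was added. RPKM used merged exon lengths of GENCODE M21, which also gave coordinates. The sources used here do not settle which annotation release the counts were made with, so exon lengths may differ from those counted. Promoter windows came from RefSeq (GRCm38.p6). Fits used edgeR 4.0.16 and DESeq2 1.42.0 in R 4.3.3. Lists and figures were made in Python 3.11.15 with matplotlib 3.10.9. In simulated data made from these libraries, with log2 changes of 2 in size, edgeR called 153 of 189 changed genes and 18 of the unchanged genes among 14717, and DESeq2 called 164 of 200 and 54 among 15133. The macrophage genes ran only from -0.57 to 0.31, so these rates do not tell how often changes of that size would be called.

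Of the 10 genes that the choice of members names, 1 is not reported here. The macrophage genes and the marker lists were chosen with earlier results of these data known. Genes named are the macrophage genes, markers of the gate, Lyz1 and Pdgfrb, Spi1, Itgam, Tyrobp and Fcer1g, all tested signals and C1 partners, the lowest gene, the highest and the one with the most CPM of every other list, and the 12 genes most like C1q, besides genes that stand for a count of 5 or fewer. Alternatives were DESeq2-type size factors, library size alone, scaling to the fibroblast list, 2 other filters on low counts, the replicate number as a block, robust moderation, DESeq2's Wald test, and each replicate left out in turn.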

Additional observations from a re-analysis of the deposited data

How the results depend on the processing

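Under 14 alternatives, 0 macrophage genes reached an adjusted p under 0.05 in any fit. Over all genes the count was 0 by edgeR, 2 when scaled to the fibroblast list, 31 with DESeq2 and 0 to 2 when replicates were left out in turn (2 without Ctrl replicate 1). The median log2 fold change of the macrophage genes, -0.32, was -0.69 when scaled to the fibroblast list, where the median of all genes was -0.42, and ran from -0.49 to -0.0070 when replicates were left out (-0.0070 without Ctrl replicate 2). Of the single values for these genes, 120 kept their direction and 5 turned: Adgre1 (-0.26) and Lyz2 (-0.33) when scaled to the fibroblast list, Csf1r (-0.28 to 0.15 over left-out replicates) and C1qc (-0.61 to 0.0019) without Ctrl replicate 2, and Trem2 (-0.96 to 0.048) without Ctrl replicate 3. Relative to the median of all genes under the fibroblast scaling, Adgre1 was at 0.16 and Lyz2 at 0.08. Mrc1 was lower in all 14, from -0.88 to -0.39, with adjusted p from 0.444 to 0.916. The cause of these shifts was not tested. Genes at an unadjusted p under 0.05 numbered 1199, 1810 with all genes of at least 1 count, and 147 when scaled to the fibroblast list. Same-numbered libraries of the groups deviated together with correlations of 0.146, 0.162 and -0.065, and the labels give no shared litter or day, so the numbers were not taken as pairs. With the replicate block, edgeR gave 0 adjusted calls over all genes, 1271 genes at an unadjusted p under 0.05, and a median of -0.27 for the macrophage genes, with Mrc1 at an adjusted p of 0.575. Ctrl replicate 3 correlated best with DTR replicate 2 (0.144), not with its own number. Trem2 gave no value with at least 10 counts in every library. Trem2 and the untested genes had few counts, and no group had more than 3 libraries.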
